A study of Ovis aries with 23 samples.

Results

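CRY1, CRY2 and PER3 are clock genes of the sheep, and their mRNA was followed in the pars tuberalis (PT), the part of the pituitary that wraps the stalk and reads day length from melatonin. They were chosen by name for their role in the clock, with earlier results of these data known. They account for 3 of the 25197 genes counted: CRY1 (ENSOARG00000017816), CRY2 (ENSOARG00000002386) and PER3 (ENSOARG00000010374). RNA was sequenced from PTs of male Scottish blackface sheep, all of them neutered. The 4 groups were short photoperiod (SP, a light to dark cycle of 8 hr to 16 hr, 5 samples) and long photoperiod (LP, 16 hr to 8 hr) lasting 1, 7 or 28 days (6 samples each), 23 samples in all. The labels give no age and no hour of collection. The study's methods state that sampling time points varied, without saying there whether hours are meant. For a different experiment, the paper gives mid-light collection times, counted from lights on, that were later on LPs than on SPs. Whether the hour also differed between SPs and LPs for the samples used here is not given in the sources used. The part of such a difference in the photoperiod comparisons was not tested. Samples within a group carry the numbers 1 to 6, on SPs 1 to 5, and what an odd or an even number stands for is not given in the sources used here.

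The circadian clock is a feedback loop in which CLOCK and ARNTL (BMAL1) switch on genes that include the cryptochromes (CRY) and periods (PER). CRY and PER proteins then enter the nucleus and block CLOCK and ARNTL, which silences their own genes until the proteins are degraded. In the PT the loop is unusual in that the nightly rise of melatonin, acting through the receptor MTNR1A, induces CRY1 around the onset of darkness, whereas other clock genes peak at other phases of the day.

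Levels are given as CPM, the counts of a gene per 1000000 counts of its library, after TMM scaling, a correction for libraries of unlike makeup. CPM is not divided by gene length, so levels are compared between samples and not between genes. Total counts ranged from 307952 in LP day 1 sample 4 to 4413929, with a median of 3332320, and the second lowest was 1852503. CRY1 had 35 to 1440 counts per sample, CRY2 11 to 236, and PER3 14 to 245. LP day 1 sample 4 held 95 counts of CRY1, 11 of CRY2 and 14 of PER3, and its CRY2 level of 32.6 CPM has an exact 95% Poisson interval of 16.3 to 58.4 CPM, which covers counting error only. LP day 1 samples 3 and 4 differed less than any other pair (a chi-square of 1.19 per gene over 8858 genes) yet by more than sampling noise, and they were kept as separate samples. This measure depends on depth, and the shallow sample 4 also had low values against other groups (2.51 with SP sample 1). The labels do not say that each sample is a different animal, so the tests measure the spread between samples, which may be technical. Bulk RNA also cannot tell fewer cells of a type from less RNA per cell.

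The labelled tissue was checked with its markers. The 5 PT thyrotroph genes CGA, TSHB, MTNR1A, EYA3 and CHGA summed to between 6727 and 15087 CPM in every sample, and only MTNR1A was at 0 in a sample (LP day 1 sample 4). CGA made up most of this sum, with 3886 to 11559 CPM, whereas MTNR1A had 0.00 to 41.5 CPM. The paper also describes CHGA and TSHβ in pars distalis cells, so the sum alone does not tell PT from pars distalis. The 6 hormone and lineage genes of the neighbouring pars distalis (PRL, GH1, POU1F1, POMC, LHB and FSHB) summed to between 34994 and 272700 CPM and were at 0 in none, so the samples also held pars distalis RNA. GFAP, a marker of astrocytes and tanycytes of the hypothalamus, lay between 47.8 and 832 CPM, and S100B of folliculostellate cells between 11.9 and 180 CPM. The part of these cells in the clock gene levels was not tested.

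CRY1, a repressor of CLOCK and ARNTL, fell into separate low and high ranges in every photoperiod group. On SPs, samples 1 to 5 had 22.5, 206, 22.8, 237 and 406 CPM. On LP day 1, samples 1 to 6 had 28.3, 235, 261, 282, 209 and 34.5 CPM. Each of these groups thus held 2 low samples, and all others were high. On LP day 7 the odd samples 1, 3 and 5 had 23.8, 23.2 and 23.2 CPM and the even samples 2, 4 and 6 had 302, 298 and 229 CPM. On LP day 28 the odd samples had 29.3, 28.7 and 16.9 CPM and the even samples 242, 138 and 156 CPM. On both of these days the 3 low samples were the odd ones and the 3 high samples the even ones.

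Over all 23 samples, 10 lay between 16.9 and 34.5 CPM and 13 between 138 and 406 CPM, with none in between. The lowest high sample was 4.00-fold above the highest low sample, a gap of 1.98 on the log2 scale. Of the 10448 genes with a mean over 10 CPM, none had a wider gap with at least 5 samples on each side. The SD of CRY1 over the samples was 1.67 on the log2 scale, rank 16 of these genes, and its highest sample stood 24.0-fold above its lowest. Some folder numbers in the file headers occur both among sample numbers 1 to 3 and among 4 to 6, and none repeats within either. These were therefore treated as separate sets of libraries, which the headers themselves do not state. Of 12 samples in the first set 7 were low for CRY1, and of 11 in the second 3 were low, so both ranges occurred in both sets.

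CRY2, the second cryptochrome and a repressor of the same loop, varied far less. On SPs, samples 1 to 5 had 47.1, 25.7, 45.6, 37.6 and 31.9 CPM. The 6 samples of LP day 1 ranged from 32.6 to 48.1 CPM (median 38.2), those of LP day 7 from 32.6 to 60.1 (median 42.8), and those of LP day 28 from 34.9 to 51.8 (median 40.4). All 4 groups overlapped. The lowest sample was SP sample 2 and the highest LP day 7 sample 5, a ratio of 2.33, and the SD of 0.27 on the log2 scale ranked 5520 of the 10448 genes.

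PER3, a period protein that associates with CRY proteins in the repressor complex, lay between these extremes. On SPs, samples 1 to 5 had 48.7, 13.5, 47.9, 24.95 and 27.6 CPM. The 6 samples of LP day 1 ranged from 28.4 to 41.5 CPM (median 31.6), those of LP day 7 from 28.5 to 62.4 (median 43.9), and those of LP day 28 from 29.1 to 53.8 (median 40.2). SP sample 2 was again the lowest and LP day 7 sample 5 again the highest, a ratio of 4.61. The groups overlapped, and the SD of 0.46 on the log2 scale ranked 1120 of the same genes.

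**Figure D1:**
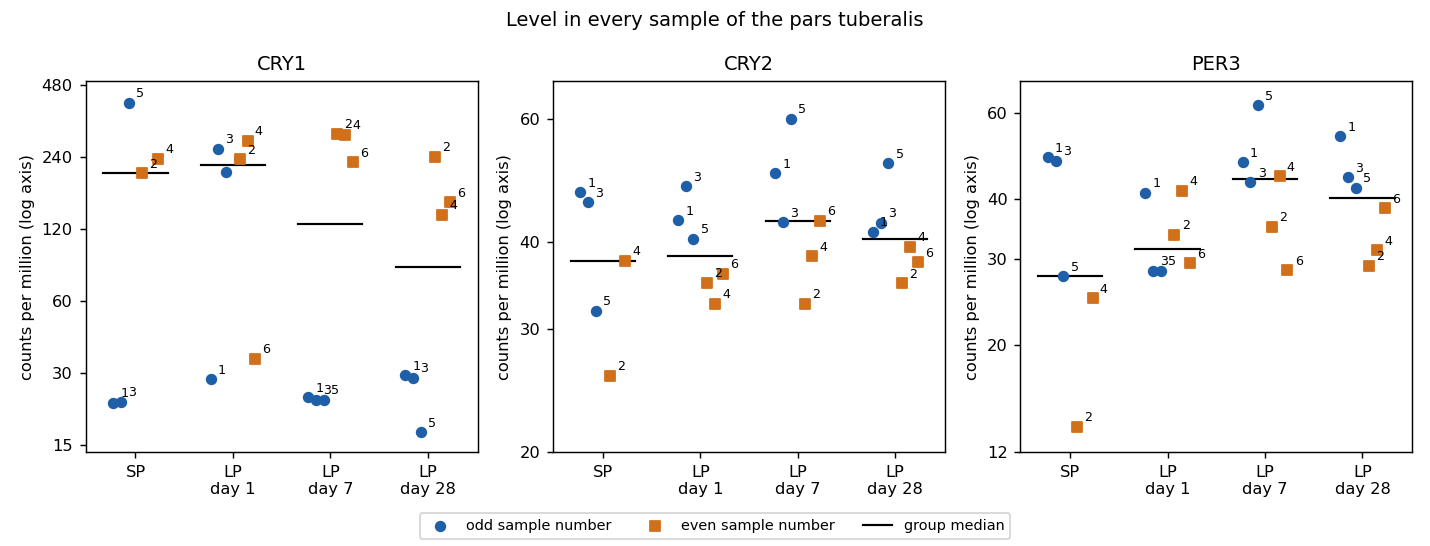
Level in CPM (log axis, a separate scale per panel) of CRY1, CRY2 and PER3 in each of the 23 samples, by photoperiod group. Blue circles are odd and orange squares even sample numbers, the digits are the sample numbers, and the bar is the group median. CRY1 has no sample between 34.5 and 138 CPM, whereas CRY2 and PER3 run without such a gap.

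The photoperiod comparisons asked whether the level of a clock gene changed after transfer from SPs to LPs or between LP days. Mean CRY1 was 179 ± 162 CPM on SPs (SD, n = 5), 175 ± 114 on LP day 1, 150 ± 141 on LP day 7 and 102 ± 91.1 on LP day 28 (n = 6 each). The means descended in that order, but no neighbours in it differed beyond their spread. Mean CRY2 was 37.6 ± 9.06, 39.2 ± 5.76, 44.4 ± 9.61 and 41.3 ± 5.86 CPM in the same groups, and mean PER3 was 32.6 ± 15.3, 33.8 ± 6.18, 43.6 ± 11.6 and 39.8 ± 9.09 CPM. Both were lowest on SPs and highest on LP day 7, again within their spread.

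None of the 3 genes was called in any of the 6 comparisons when edgeR's quasi-likelihood p-values were adjusted by Benjamini-Hochberg and an FDR under 0.05 was required. The share of all genes called, as background, was 0.00% for SP against LP day 1 (0 of 14920 genes by edgeR, with 497 at an unadjusted p under 0.05, 2 by DESeq2 and 0 by limma voom), 0.266% for SP against LP day 7 and 0.670% for SP against LP day 28. It was 0.0201% for LP day 1 against LP day 7, 0.00672% for LP day 7 against LP day 28 and 0.216% for LP day 1 against LP day 28. Comparisons with the same group share its samples and are not independent of each other.

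For CRY1, the log2 difference on LP day 28 from SPs was -0.81 (SE 0.67, FDR 0.638), with a 95% interval from -2.23 to 0.60, and it was -0.26 without SP sample 5 and -1.29 without LP day 28 sample 2. On LP day 7 it was -0.25 from SPs (SE 0.79) and on LP day 1 it was -0.07 (SE 0.66), and both changed direction without SP sample 5. Every group held samples of both ranges of CRY1, and the interval on LP day 28 holds values from -2.23 to 0.60. What size of difference could be detected at this spread was not tested. The 3 comparisons among LP days gave log2 differences of CRY1 from -0.73 to -0.19.

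For CRY2, the log2 difference from SPs was 0.08 on LP day 1 (SE 0.17), 0.24 on LP day 7 (SE 0.18, FDR 0.584) and 0.12 on LP day 28 (SE 0.16, FDR 0.781). The interval for SP against LP day 28, from -0.21 to 0.45, bounds this difference more closely than that of CRY1. For PER3, it was 0.01 on LP day 1 (SE 0.26), 0.41 on LP day 7 (SE 0.27, FDR 0.521) and 0.28 on LP day 28 (SE 0.25, FDR 0.673). Between LP day 1 and LP day 7, PER3 had a log2 difference of 0.40 (SE 0.17, FDR 0.882), the only one of the 18 log2 differences whose unadjusted 95% interval, from 0.03 to 0.76, left out 0.

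**Figure D2:**
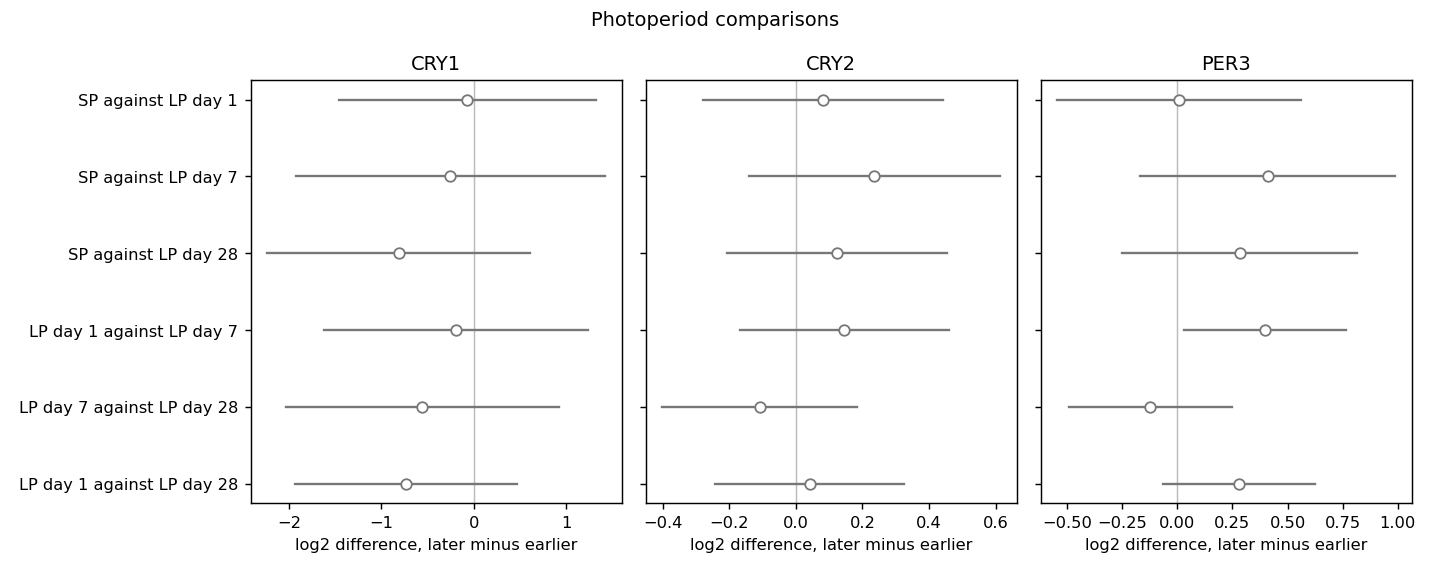
Log2 difference (later minus earlier group) of CRY1, CRY2 and PER3 in the 6 photoperiod comparisons, with 95% intervals from edgeR. Open points did not pass an FDR of 0.05, and each panel has its own scale. No point passed, and the intervals of CRY1 are several times wider than those of CRY2.

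Sample numbers were compared next, because on LP days 7 and 28 the ranges of CRY1 followed odd and even numbers in all 12 samples. This split was known from earlier results of these data, so the comparison describes it and is not independent evidence for it. CRY1 in the 6 odd samples of these days ranged from 16.9 to 29.3 CPM (24.2 ± 4.51, SD) and in the 6 even samples from 138 to 302 CPM (227 ± 69.0). The ranges did not overlap. With the photoperiod group in the model, CRY1 was 9.09-fold higher in even samples, a log2 difference of 3.18 (SE 0.18, 95% interval 2.81 to 3.56, edgeR FDR 2.88e-08). Of 14890 genes tested CRY1 had the smallest p, and 152 genes (1.02%) were called, 45 higher and 107 lower in even samples.

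CRY2 and PER3 had log2 differences of the opposite sign between the same samples, and neither passed the FDR. CRY2 had 41.4 to 60.1 CPM in odd samples (48.1 ± 7.29) and 32.6 to 42.9 CPM in even samples (37.6 ± 3.55). The log2 difference was -0.35 (SE 0.11, 95% interval -0.59 to -0.12, FDR 0.211). PER3 had 42.1 to 62.4 CPM in odd samples (48.9 ± 7.81) and 28.5 to 44.6 CPM in even samples (34.4 ± 6.19), a log2 difference of -0.51 (SE 0.13, 95% interval -0.79 to -0.23, FDR 0.0892). For each gene 1 even sample of LP day 7 lay above the 3 lowest odd samples, and the ranges otherwise did not overlap. Their calls depended on the model: CRY2 passed with the library set as a covariate (log2 difference -0.45, FDR 0.0323), and PER3 passed with DESeq2 (-0.51, FDR 0.0289).

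Markers of the pars distalis overlapped between odd and even samples. Their 6 genes summed to between 46515 and 272700 CPM in the odd and between 74590 and 252933 CPM in the even samples, and none of the 6 was called. PRL had a log2 difference of 0.16 (SE 0.38) and GH1 of 0.22 (SE 0.26). GFAP (-0.20, SE 0.26) and S100B (-0.06, SE 0.24) were not called either. Among the 5 PT genes, MTNR1A, the melatonin receptor, was lower in even samples with a log2 difference of -3.30 (SE 0.40, FDR 0.000304), and so was EYA3, a coactivator of TSHB, with -3.36 (SE 0.34, FDR 5.69e-05). CGA, TSHB and CHGA were not called. What the odd and even numbers stand for was not tested, and the labels give nothing by which it could be.

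On SPs and on LP day 1 the numbers did not separate CRY1. SP sample 5 and LP day 1 samples 3 and 5 had odd numbers and were high, and LP day 1 sample 6 had an even number and was low. On SPs, sample 5 was the one sample that departed from low odd and high even values. Over these 11 samples the log2 difference of CRY1, even minus odd, was 0.30 (SE 0.67, 95% interval -1.11 to 1.70), that of CRY2 was -0.36 (SE 0.16, FDR 0.957) and that of PER3 was -0.50 (SE 0.25, FDR 0.972). Without SP sample 5 the log2 difference of CRY1 was 1.28, and without SP sample 1 it was 0.050. CRY2 and PER3 had nearly the values seen on LP days 7 and 28, with wider intervals, but without SP sample 2 that of PER3 was -0.24. No gene was called by edgeR (0.00% of 14920, with 766 at an unadjusted p under 0.05), and 2 were called by DESeq2 and 0 by limma voom.

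Group by group, in a single model with a mean for each group and parity, the log2 difference of CRY1 was 0.56 on SPs (SE 0.82), 0.04 on LP day 1 (SE 0.78), 3.57 on LP day 7 (SE 0.84, FDR 0.103) and 2.80 on LP day 28 (SE 0.83, FDR 0.534). The value on SPs rests on single samples, since it was 3.29 without sample 5, as large as on the later days, and 0.051 without sample 1. In this model the spread is estimated over all 4 groups, and the SEs exceed that of the 12-sample comparison. The background of calls was 0.00% on SPs and on LP day 1 (0 of 16454 genes by edgeR, with 1278 and 897 at an unadjusted p under 0.05), 0.134% on LP day 7 and 0.0304% on LP day 28. The even-odd difference of CRY1 on LP days 7 and 28 minus that on SPs and on LP day 1 was 2.88 (SE 0.82, 95% interval 1.196 to 4.57), and with an FDR of 0.401 it did not pass (0.0243% of genes did). Without SP sample 5 this difference was 1.52. The groups were pooled in these pairs with the split on LP days 7 and 28 already known, so the interval is not an independent test. For CRY2 it was 0.02 (SE 0.19) and for PER3 0.04 (SE 0.25).

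CRY2 had a negative log2 difference, even minus odd, in each of the 4 groups, from -0.42 on LP day 7 to -0.28 on LP day 28, and its odd and even samples did not overlap on LP days 1 and 28. On LP day 1 the even sample 4 had 11 counts, and its interval of 16.3 to 58.4 CPM covers all the odd values. How many of all genes separate in this way was not computed, here or for the other genes described. PER3 was lowest in the even samples of SPs, where samples 2 and 4 had 13.5 and 24.95 CPM and the odd samples 27.6 to 48.7 CPM. The log2 difference of PER3 was -1.11 on SPs (SE 0.28, FDR 0.591), 0.01 on LP day 1 (SE 0.26), -0.49 on LP day 7 (SE 0.23) and -0.52 on LP day 28 (SE 0.24). None of these passed the FDR.

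**Figure D3:**
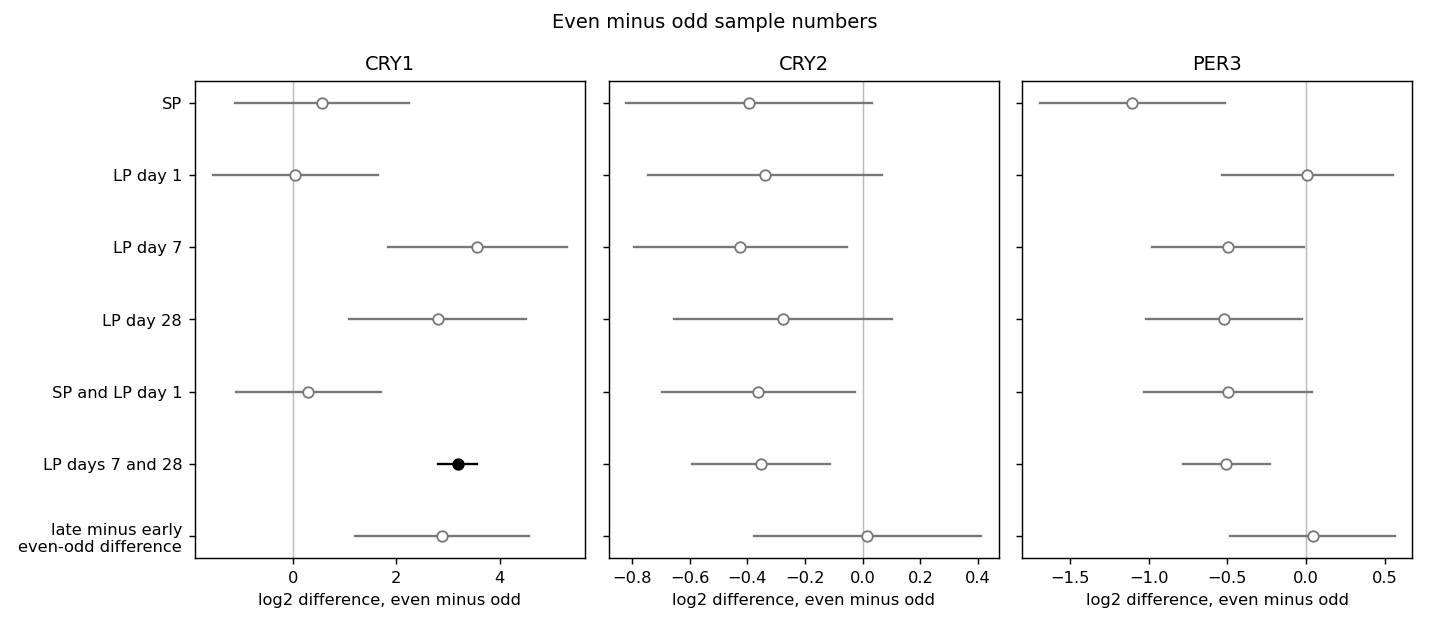
Log2 difference, even minus odd sample numbers, of CRY1, CRY2 and PER3 in each group, in pairs of groups, and the difference between the later pair (LP days 7 and 28) and the earlier pair (SP and LP day 1), with 95% intervals from edgeR. The filled point passed an FDR of 0.05, and each panel has its own scale. CRY1 on LP days 7 and 28 (3.18) is the one filled point, and CRY2 points lie to the left of 0 in every group.

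Photoperiod was then compared within odd and within even numbers. Among odd samples CRY1 had a log2 difference from SPs of -2.69 on LP day 7 (SE 0.83, FDR 0.207) and of -2.55 on LP day 28 (SE 0.83, FDR 0.376), where 0.188% and 0.207% of genes were called. Both values rest on the high SP sample 5, without which they were 0.03 and 0.17. Among even samples the log2 differences were 0.31 (SE 0.82) and -0.32 (SE 0.82), with 0.0547% and 0.267% of genes called. The contrast of even and odd was 3.00 on LP day 7 (SE 1.18, FDR 0.995) and 2.23 on LP day 28 (SE 1.17, FDR 0.813), and without SP sample 5 these were 0.29 and -0.49. In both contrasts no gene was called by edgeR (0.00%, with 760 and 993 at an unadjusted p under 0.05).

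On LP day 1 against SPs, CRY1 had log2 differences of 0.15 in odd samples (SE 0.74) and -0.37 in even samples (SE 0.85), a contrast of -0.52 (SE 1.13). The odd difference and the contrast too rest on SP sample 5, without which they were 2.87 and -3.24. PER3 had -0.34 in odd samples (SE 0.24) and 0.77 in even samples (SE 0.30), and their contrast of 1.11 (SE 0.39) had an FDR of 0.811. No gene was called in these 3 contrasts by edgeR (0.00%, with 598, 1144 and 968 genes at an unadjusted p under 0.05).

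PER3 in even samples had 13.5 and 24.95 CPM on SPs against 28.5 to 44.6 CPM on LP day 7 and 29.1 to 38.2 CPM on LP day 28, so the even samples of SPs lay below those of both later days. The log2 differences were 0.90 (SE 0.29, FDR 0.347) and 0.76 (SE 0.29, FDR 0.275). They rest on 2 even samples of SPs, and were 0.53 and 0.39 without sample 2 and 1.41 and 1.27 without sample 4. In odd samples PER3 differed by 0.29 (SE 0.23) and 0.17 (SE 0.23), and the contrast of even and odd was 0.61 (SE 0.37, FDR 0.995) on LP day 7 and 0.58 (SE 0.37, FDR 0.817) on LP day 28. Without SP sample 2 these contrasts were 0.24 and 0.21. CRY2 had log2 differences from SPs between 0.08 and 0.28 in all 6 within-parity comparisons, and its contrasts of even and odd lay between -0.03 and 0.12.

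Between LP days 7 and 28 the ranges of CRY1 allowed a closer comparison, made over these 12 samples. In even samples CRY1 was 229 to 302 CPM at day 7 and 138 to 242 CPM at day 28, a log2 difference of -0.63 (SE 0.19, 95% interval -1.03 to -0.23), and with an FDR of 0.999 it was not called (0.0128% of 15595 genes were). In odd samples the log2 difference was 0.14 (SE 0.23, 95% interval -0.34 to 0.63), and the contrast of even and odd was -0.77 (SE 0.30, FDR 0.663), where 0.122% and 0.00641% of genes were called. CRY2 and PER3 had log2 differences of -0.02 and -0.14 in even samples and -0.18 and -0.11 in odd samples, with contrasts of 0.16 (SE 0.23) and -0.02 (SE 0.27).

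How the 3 genes varied together was measured on log2 CPM across samples. Since CRY1 fell into separate ranges, its relations were computed within each range, and no r is given over odd or over even samples, each of which held both ranges. Within a range the group means were not subtracted, so differences between photoperiod groups can enter these values. In the 10 samples of low CRY1, CRY1 and CRY2 had a Pearson r of -0.73 (permutation p = 0.019, adjusted 0.0343 over 3 pairs) and a Spearman rho of -0.73 (permutation p = 0.0203, adjusted 0.0609). Without the 2 samples farthest from the median of CRY1 the r was -0.57. In the 13 samples of high CRY1 the r was -0.20 and rho -0.30 (permutation p = 0.514 and 0.323, adjusted 0.65 and 0.83). CRY1 and PER3 had an r of -0.39 and a rho of -0.19 in the low range (permutation p = 0.262 and 0.607, adjusted 0.262 and 0.607) and 0.13 and 0.18 in the high range (permutation p = 0.65 and 0.553, adjusted 0.65 and 0.83).

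CRY2 and PER3 were positively related over all 23 samples after group means were subtracted, with an r of 0.65 (permutation p = 0.00084, adjusted 0.00084 over 3 pairs) and a rho of 0.57 (permutation p = 0.0051, adjusted 0.0051). Without the 2 samples farthest from the median of CRY2 the r was 0.48. Within the ranges of CRY1 the group means were again not subtracted. In the low range the r was 0.73 (permutation p = 0.0228, adjusted 0.0343) but the rho was 0.37. Without the 2 farthest samples the r was -0.17, so the relation there rests on those samples. Within the high range the r was 0.40 (permutation p = 0.17, adjusted 0.509) and -0.22 without the 2 farthest, and the rho was 0.03. With group means subtracted, the r was 0.49 within odd samples (n = 12, permutation p = 0.106, adjusted 0.106) and 0.36 within even samples (n = 11, permutation p = 0.283, adjusted 0.772). The rho was 0.54 in odd and -0.02 in even samples. Without the 2 farthest samples the r was 0.30 in odd and -0.57 in even samples. Within these sets the relation thus either did not pass or rested on 2 samples. In the low range CRY2 was between 36.01 and 60.1 CPM and PER3 between 29.4 and 62.4 CPM.

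**Figure D4:**
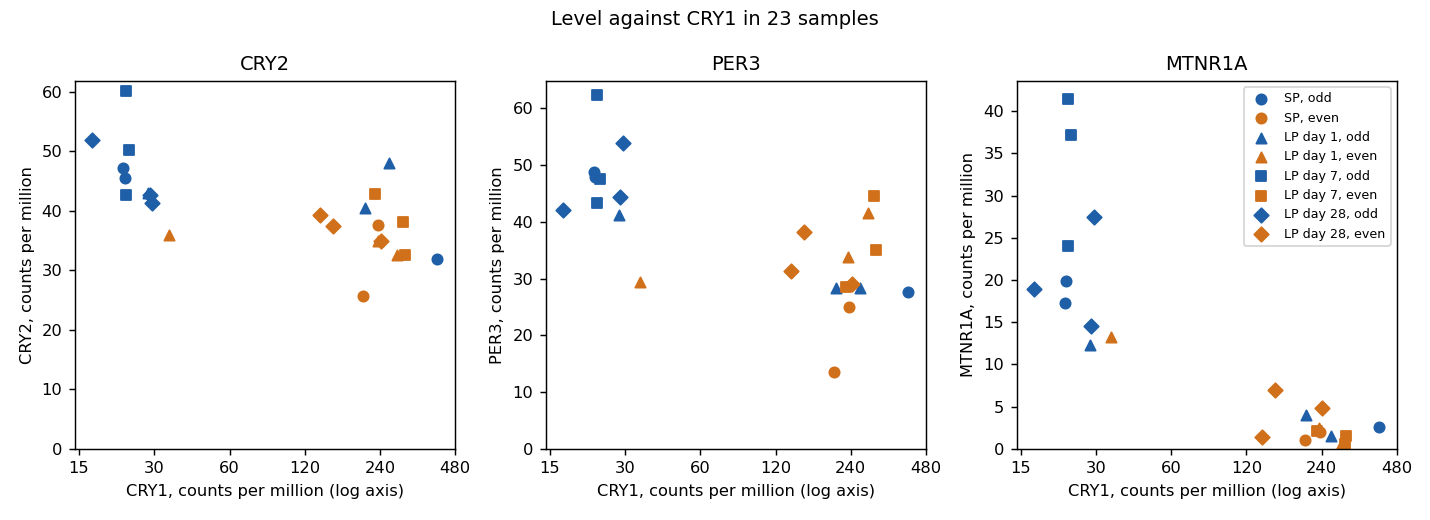
CRY2, PER3 and MTNR1A (CPM, linear axis from 0) against CRY1 (CPM, log axis) in each of 23 samples. The shape gives the photoperiod group and the colour odd (blue) or even (orange) sample numbers. All samples lie in a low or a high range of CRY1, MTNR1A is at 12.3 CPM or more in the low range and at 7.02 CPM or less in the high range, and CRY2 and PER3 overlap between the ranges.

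The genes with patterns most like each clock gene were found by Pearson's r of log2 CPM over the 23 samples, among 10447 other genes with a mean over 10 CPM. These r values describe samples that share libraries and photoperiod, and those with CRY1 mostly reflect its low and high ranges. The highest with CRY1 were DRD1, a dopamine receptor (r = 0.909), TSHR, the thyrotropin receptor (0.895), and MTERF2, a mitochondrial transcription termination factor family member (0.870), beside 2 genes with no symbol. DRD1 had 1.53 to 11.6 CPM in the odd and 20.3 to 38.4 CPM in the even samples of LP days 7 and 28. TSHR had 10.7 to 24.2 CPM and 46.1 to 115 CPM in the same samples. Both were thus high where CRY1 was high, without overlap. MTERF2 overlapped, with 15.5 to 35.2 CPM in the odd and 31.2 to 92.7 CPM in the even samples.

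The most opposite pattern of all 10447 genes was that of MTNR1A (r = -0.905), the receptor through which melatonin acts in the PT. On SPs, samples 1 to 5 had 17.2, 1.02, 19.9, 1.94 and 2.54 CPM of MTNR1A, high in the samples with low CRY1. On LP day 1 samples 1 and 6, low for CRY1, had 12.3 and 13.2 CPM, and the other 4 had 0.00 to 4.01 CPM. The 0.00 CPM of sample 4 was 0 counts, with an upper 95% bound of 10.9 CPM. On LP days 7 and 28 the odd samples had 14.5 to 41.5 CPM and the even samples 0.54 to 7.02 CPM, from only 2 to 18 counts. MARCH4, a membrane-bound ubiquitin ligase, came next (r = -0.900), with 54.9 to 97.4 CPM in those odd and 17.1 to 35.3 CPM in those even samples.

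For CRY2 the only one of the 5 most similar genes with a symbol was NR1D1 (REV-ERB alpha), a repressor of ARNTL, in place 3 (r = 0.738), and PER3 came in place 11 (r = 0.699). For PER3 it was TEF, a PAR bZIP transcription factor of the clock's output, in place 4 (r = 0.795). None of the 3 least similar genes had a symbol for either CRY2 or PER3.

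The rest of the clock was read from a list of 24 other clock genes, of which 10 could be paired with an identifier. PER1, PER2, NPAS2, the RORs, casein kinases and 6 others could not and were not analysed here. The pairs come from lists the study drew up in part from these samples, so the 10 are not a neutral sample of the clock. Between odd and even samples of LP days 7 and 28, 5 of the 10 were lower in even samples and none was higher, beside 0.719% and 0.302% of all genes. The median log2 difference of the 10 was -0.52, against 0.0002 over all genes.

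The 5 called genes are targets of CLOCK and ARNTL, and all had higher values in the odd samples, where CRY1 was low. CIART, a repressor of the loop, had 17.6 to 74.6 CPM in odd and 7.53 to 16.5 CPM in even samples, 4.02-fold lower in even samples (FDR 0.00081). NR1D1 had 107 to 458 CPM in odd and 67.7 to 102 CPM in even samples, 2.93-fold lower (FDR 0.00283). The odd and even ranges of both genes did not overlap. BHLHE41 (DEC2), another repressor, was 2.38-fold lower (FDR 0.0124), with ranges of 44.9 to 191 and 32.6 to 55.8 CPM that overlapped, and its FDR was 0.0526 without LP day 7 sample 2 and 0.0520 without LP day 7 sample 4. The PAR bZIP factors DBP and TEF were 1.86-fold (FDR 0.00278) and 1.50-fold lower (FDR 0.00569). DBP had 149 to 289 CPM in odd and 94.8 to 133 CPM in even samples, and TEF 145 to 202 and 102 to 139 CPM, both without overlap.

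The activators did not pass. CLOCK had a log2 difference of -0.13 (SE 0.24), ARNTL of -0.10 (SE 0.14) and ARNTL2, an ARNTL paralogue, of -0.30 (SE 0.42). The repressor NR1D2 (-0.39, SE 0.20) and the F-box protein FBXL21 (-0.45, SE 0.15), which acts in CRY turnover, did not pass either. CRY1 was thus the one clock gene of the 13 described that was called higher in even samples.

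**Figure D5:**
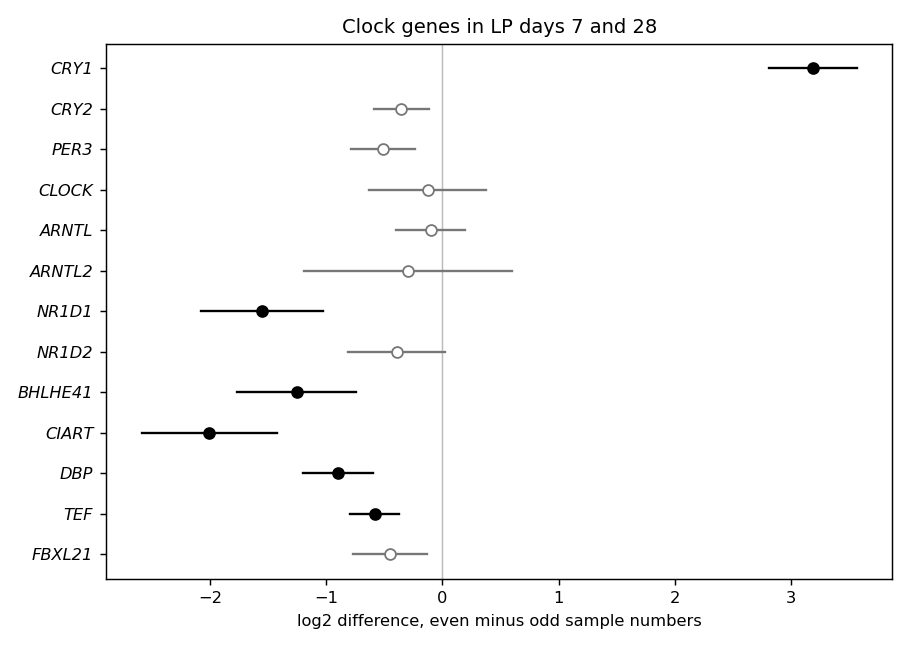
Log2 difference, even minus odd sample numbers, of CRY1, CRY2, PER3 and 10 other clock genes on LP days 7 and 28 (6 odd and 6 even samples), with 95% intervals from edgeR. Filled points passed an FDR of 0.05. CRY1 lies at 3.18, and the 5 other filled points lie between -2.01 and -0.58.

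Between photoperiod groups, calls among the 10 other clock genes fell on ARNTL and ARNTL2. Of all genes, 0.266% were called on LP day 7 and 0.670% on LP day 28 against SPs. For LP day 28 against LP day 1 the share was 0.216%. As said above, the 10 are not a neutral sample of the clock. ARNTL2 was called higher on LP day 7 (FDR 0.0463) and LP day 28 (FDR 0.000785) than on SPs, and higher on LP day 28 than on LP day 1 (FDR 0.000688). It had 0.00 to 0.79 CPM on SPs, at most 3 counts in a sample, and 3.41 to 11.3 CPM on LP day 28. Genes were tested if over 1 CPM in as many samples as the smaller group. ARNTL2 was under 1 CPM in every sample of SPs and LP day 1. It thus entered these tests only through the samples of LP day 7 or 28, where it was then called higher. ARNTL fell by 0.86 on the log2 scale from SPs to LP day 28 (SE 0.19, FDR 0.0481), from 49.0 ± 16.3 (SD, n = 5) to 26.9 ± 4.12 CPM (n = 6). The call of ARNTL was lost in 13 of 23 alternatives (FDR 0.00485 to 0.259) and that of ARNTL2 on LP day 7 in 12 of 22 (FDR 0.00603 to 0.122), most of them with a single sample left out, and the other calls of ARNTL2 held in all alternatives run. No other gene of the 10 was called in the 6 comparisons, of which SP against LP day 1 tested 9 of them. CLOCK had log2 differences from SPs of 0.35 (SE 0.33) on LP day 7 and 0.28 (SE 0.34) on LP day 28.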

How the data were processed

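The authors deposited a table of whole-number counts per Ensembl sheep gene (Oar_v3.1, per the labels) for each of the 23 samples. The submitters' processing notes name Bowtie and HTSeq, whereas the file headers have the form featureCounts gives for TopHat alignments, and which program counted was not settled. CRY1, CRY2, PER3, the clock list and the markers were chosen with earlier results of these data known. So was the pooling of LP day 7 with LP day 28 and of SP with LP day 1. Symbols came from the study's supplementary lists, which name 1259 of the 25197 genes.

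Counts were tested in R 4.3.3 with edgeR 4.0.16 (TMM scaling, genes over 1 CPM in as many samples as the smaller group, quasi-likelihood test, Benjamini-Hochberg FDR under 0.05 over all genes tested). Intervals are 95%. The fit was checked on simulated data. Alternatives were other scalings and filters, DESeq2 1.42.0, limma 3.58.1, covariates and samples left out. Those with the library set, without LP day 1 samples 3 and 4, and for LP day 7 against LP day 28 within parity were chosen after seeing the data. Correlations used log2 CPM (prior count 2) and 100000 permutations, and were split by CRY1 range after the ranges were seen. Genes named are the 3 members, list genes called or acting as activators, similar genes with a symbol, and markers. NR1D2 and FBXL21 were named after their values were seen. 1 gene of the clock list is not reported here and was left out of the list's counts and median. No sequence or chromosome position is given, since no genome of the files' build was used here.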

Additional observations from a re-analysis of the deposited data

How the results depend on the processing

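Of 1827 alternative values of the 75 log2 differences of CRY1, CRY2 and PER3, 1735 kept the direction and the side of the threshold, 85 changed direction, 7 passed the threshold anew and none lost a call. Of the 75, only CRY1 between odd and even samples of LP days 7 and 28 was called at first. The others had no call to lose, so most of the 1735 values are differences that stayed uncalled. The call of CRY1 between odd and even samples of LP days 7 and 28 held in every alternative, and 0.547% to 2.01% of all genes were called in that comparison, 0.747% to 1.06% with 1 sample left out. The lowest depth (LP day 1 sample 4, 307952 counts) limits CRY2 and PER3 at LP day 1, and 2 or 3 samples of a group and parity limit every comparison within parity. What an odd or even number marks, and which sheep or hour a sample comes from, is not given.

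With library size alone as the scaling, the log2 difference was -0.054 for CRY2 at LP day 1 against LP day 28, -0.00579 and -0.053 for CRY1 and PER3 in even against odd samples of LP day 1, -0.031 for CRY2 at LP day 28 in odd samples and 0.031 for its contrast of even and odd at LP day 7. Between LP days 7 and 28 it was -0.028 for CRY1 in odd samples and 0.061 for the contrast of PER3 between even and odd. With LP day 1 samples 3 and 4 summed, PER3 at LP day 1 against SPs was -0.013, and with the library set as a covariate CRY1 there was 0.16. With no filter CRY1 passed in even against odd samples of LP day 7 (3.56, FDR 0.00217), in the later minus earlier even-odd difference (2.87, FDR 0.0484) and at LP day 7 against SPs in odd samples (-2.68, FDR 0.0295). CRY2 passed between odd and even samples of LP days 7 and 28 with the library set (-0.45, FDR 0.0323), and PER3 with DESeq2 (-0.51, FDR 0.0289). The cause of these changes was not tested.

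Deviations from the group means of 33 same-numbered pairs had a mean correlation of 0.038 (-0.25 to 0.41), over 0.1 in 9. Pairs with unlike numbers were not compared, so whether sample numbers pair the samples was not tested. With the sample number as a replicate block, none of the 18 photoperiod differences was called, and CRY1 at LP day 1 against SPs turned to 0.53 (FDR 1.00), while CRY1 at LP day 28 was -0.70 (FDR 0.706).

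With each sample left out in turn, log2 differences from SPs ran from -0.37 to 0.48 for CRY1, -0.027 to 0.17 for CRY2 and -0.18 to 0.20 for PER3 at LP day 1, and -0.59 to 0.29 for CRY1 at LP day 7. LP day 7 against LP day 1 gave -0.52 to 0.048 for CRY1, LP day 28 against LP day 7 gave -0.18 to 0.0016 for CRY2 and -0.24 to 0.011 for PER3, and LP day 28 against LP day 1 gave -0.029 to 0.12 for CRY2. Even against odd gave -0.47 to 0.61 for CRY1 and -0.0799 to 0.21 for PER3 at LP day 1 and 3.50 to 3.69 for CRY1 at LP day 7, where CRY1 passed without SP sample 1 or 5. The later minus earlier even-odd difference gave -0.11 to 0.17 for CRY2 and -0.14 to 0.30 for PER3. Within odd samples, differences from SPs were -0.37 to 2.87 for CRY1 and -0.084 to 0.18 for CRY2 at LP day 1, -3.20 to 0.032 for CRY1 at LP day 7 and -3.06 to 0.17 for CRY1, -0.046 to 0.21 for CRY2 and -0.042 to 0.31 for PER3 at LP day 28. Within even samples they were -0.82 to 0.19 for CRY1 and -0.12 to 0.43 for CRY2 at LP day 1 and -0.0205 to 0.53 for CRY2 at LP day 28. Their contrasts were -3.24 to 0.0496 for CRY1 and -0.19 to 0.36 for CRY2 at LP day 1, -0.28 to 0.27 for CRY2 at LP day 7 and -0.49 to 2.75 for CRY1 and -0.13 to 0.42 for CRY2 at LP day 28. Between LP days 7 and 28 they were -0.23 to 0.064 for PER3 in odd samples, -0.11 to 0.075 for CRY2 and -0.28 to 0.046 for PER3 in even samples and -0.20 to 0.16 for PER3 for the contrast. Without SP sample 5, the highest of all in CRY1, the CRY1 differences from SPs turned to 0.48 on LP day 1, 0.29 on LP day 7, and in odd samples 0.032 on LP day 7 and 0.17 on LP day 28.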
